A study of Mus musculus with 6 samples.

Results

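Chemokines and their receptors were described in stomach corpus tissue. The members were all genes of the deposited table whose name begins with Ccl, Cxcl, Cx3cl, Ccr, Cxcr, Cx3cr or Ackr and a number, which gave 57 of 18708 rows. Of the 57, 35 encode ligands and 22 encode receptors. Changes were read for the 23 members with a mean of at least 0.5 FPKM (fragments scaled by transcript length and library total) over the 6 libraries, that is 19 ligands and 4 receptors. At that limit, Ccl7 (mean 0.548 FPKM) lay just inside and Ccl22 (mean 0.497 FPKM) just outside.

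The study compared 3 mice labelled RUNX3 R122C, a point mutation in the transcription factor RUNX3, with 3 wild-type (WT) mice. All 6 mice were C57BL/6 and 6 months old, and each library came from total RNA of the corpus of 1 mouse. The labels state neither zygosity nor sex nor which cells carry the change. Runx3 itself was at 0.24, 0.34 and 0.95 FPKM in R122C libraries 1, 2 and 3 and at 0.34, 0.12 and 0.20 FPKM in WT libraries 1, 2 and 3. A base change can leave the amount of transcript as it was, so these values do not check the labels.

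Chemokines are small secreted proteins, named by the spacing of their first cysteines as CC, CXC or CX3C, that guide cells along a gradient through receptors coupled to G proteins. Leukocytes carry most of these receptors, and each receptor is found on particular classes of cell. Some ligands are made steadily and place cells in a tissue, while others are made after interferon, microbial or type 2 cytokine signals. Atypical receptors bind chemokines without classical G protein signalling and remove them. In the stomach mucosa, ligands come from epithelial cells, stromal cells, vessels and resident leukocytes.

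The libraries differed in ways that bear on all members. Depth, estimated from the spacing of low values, was about 45300000, 40200000 and 32800000 fragments in R122C libraries 1, 2 and 3 and about 43500000, 38800000 and 32200000 in WT libraries 1, 2 and 3. At these depths 0.5 FPKM is 16.1 to 22.6 fragments for a transcript of 1 kb. The 10 most abundant genes took 24.5% to 29.1% of summed FPKM in R122C libraries and 45.3% to 46.2% in WT libraries. Corpus gland genes identified the tissue, with Atp4a, of the acid pump, at 326 to 2229 FPKM in R122C libraries and 1962 to 3617 in WT libraries. Squamous genes of the neighbouring forestomach, 8 in the list, summed to 802 FPKM in R122C 3, against 17.2 and 53.5 in R122C 1 and R122C 2 and 0.44 to 12.9 in WT libraries. Their part in the results below was not tested.

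The promoters of Cxcl10, Cxcl9 and Ccl8 are shown because these genes follow different library patterns below. Each sequence is the 250 bases before the start site on the gene's strand, from RefSeq on GRCm38.p6, with motif matches in capitals. Cxcl10 lies at chr5:92348890-92349139 on the minus strand, Cxcl9 at chr5:92328080-92328329 on the minus strand and Ccl8 at chr11:82114935-82115184 on the plus strand.
Cxcl10: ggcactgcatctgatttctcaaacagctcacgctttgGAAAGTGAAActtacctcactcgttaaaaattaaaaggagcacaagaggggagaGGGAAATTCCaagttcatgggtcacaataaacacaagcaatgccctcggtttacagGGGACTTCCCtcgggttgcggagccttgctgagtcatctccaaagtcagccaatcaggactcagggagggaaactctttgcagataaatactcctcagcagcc
Cxcl9: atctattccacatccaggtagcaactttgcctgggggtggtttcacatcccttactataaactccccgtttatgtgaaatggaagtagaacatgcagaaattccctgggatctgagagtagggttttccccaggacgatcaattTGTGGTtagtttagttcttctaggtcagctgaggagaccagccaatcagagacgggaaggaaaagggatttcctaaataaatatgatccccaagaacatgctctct
Ccl8: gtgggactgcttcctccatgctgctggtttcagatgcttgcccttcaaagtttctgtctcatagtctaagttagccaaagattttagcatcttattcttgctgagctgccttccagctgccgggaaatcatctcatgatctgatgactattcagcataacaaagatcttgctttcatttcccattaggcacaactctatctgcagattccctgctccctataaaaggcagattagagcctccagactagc

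The motifs searched, on both strands, were the interferon-stimulated response element (GAAA, any 2 bases, GAAA), the STAT motif GAS (TTC, any 3 bases, GAA), the STAT6 motif (TTC, any 4 bases, GAA), the RUNX motif (TGTGGT) and the NF-kB consensus by its name. In the Cxcl10 window, the capitals mark 1 interferon-stimulated response element, from 213 to 204 bases before the start, and 2 NF-kB matches, from 159 to 150 and from 103 to 94 bases before it. The Cxcl9 window held 1 RUNX match, from 106 to 101 bases before the start. The Ccl8 window held none of these letters. No 2 of these matches overlapped. Among 32851 RefSeq promoter windows of the same length, the response element was in 2.98%, GAS in 7.02%, STAT6 in 5.85%, NF-kB in 3.9% and RUNX in 14%. Of the 43 members with a promoter in the table, these motifs were in 3, 4, 1, 9 and 10 in the same order. Members were counted per gene, with a match in any of its windows, while the percentages are per window, so the 2 are not in the same unit. Matches are descriptions of letters and show neither binding nor a cause.

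The comparison of R122C with WT asked which chemokine signals of the corpus differ with the mutation. Ccl8 was higher in R122C and no other member with at least 0.5 FPKM passed the test. Values were compared as log2(FPKM + 1) with limma, a linear model fitted over 12648 genes, with Benjamini-Hochberg adjustment over all of them, and a gene was called at an adjusted p under 0.05. Of the 23 members, 1 was called higher and 0 lower, against 5.07% of all tested genes called higher and 0.846% called lower, so the members' share of calls lay near the background. At an unadjusted limma p under 0.05, 6 members were higher and 0 lower, against 15.2% and 4.89% of all genes.

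Most members lay on the higher side without being called. The log2 fold change was above 0 in 19 of the 23 members, against 61.2% of all tested genes, and its median was 0.68 against 0.10 over all genes. Without R122C 3 the median was 0.38 against 0.18 over all genes, and without R122C 2 it was 0.45 against 0.10. All 3 R122C values lay above all 3 WT values in 8 members, namely Ccl8, Ccl6, Ccl7, Ccl9, Ccl24, Cxcl11, Cxcr4 and Ackr3, and below them in 0, where the shares over all tested genes were 20.1% and 5.32%. Scaling moved the level of the whole table, with a median shift of the log2 fold changes of -0.10 under median-of-ratios scaling, -0.16 under quantile normalization and 0.20 after rescaling to a common total. The number of members with a log2 fold change above 0 was then 18, 18 and 23, and the median of the members was 0.57, 0.52 and 0.77. Ccl25 turned negative under median-of-ratios scaling and quantile normalization, and Ccl21a, Ccl27a, Cxcl12 and Ackr1 turned positive with a common total. In each library against the WT mean, the median of the 23 members was 0.33, 0.11 and 0.57 in R122C libraries 1, 2 and 3 and 0.27, -0.05 and -0.11 in WT libraries 1, 2 and 3. The medians over all tested genes were 0.28, 0.09 and -0.08 in the R122C libraries and 0.13, -0.02 and -0.10 in the WT libraries. In R122C 1 and R122C 2 the members thus lay close to all genes, R122C 3 was farthest from them, and WT 1 lay above R122C 2 in the median of the members.

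**Figure D1:**
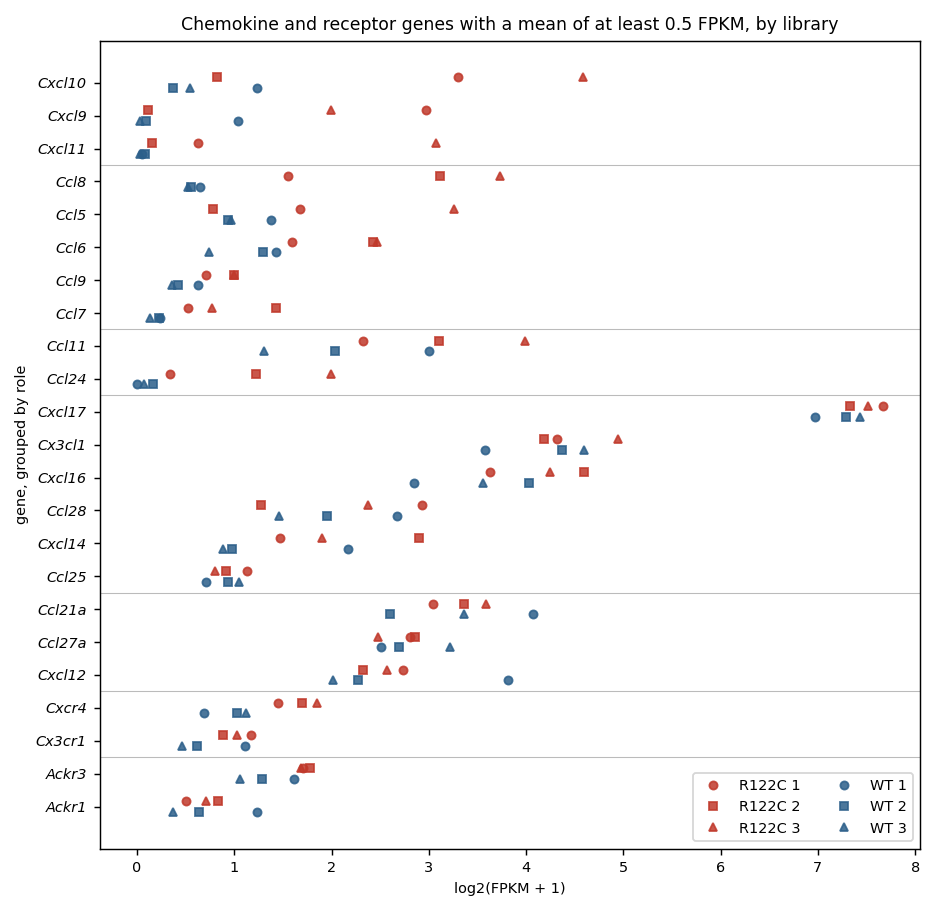
Level of the 23 genes whose mean reached 0.5 FPKM, as log2(FPKM + 1), in 3 R122C mice (red, upper point row of each gene) and 3 WT mice (blue), with 1 marker shape per replicate number. Cxcl17 lies far above all other genes, and Ccl8 has its 3 red points right of its 3 blue points.

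**Figure D2:**
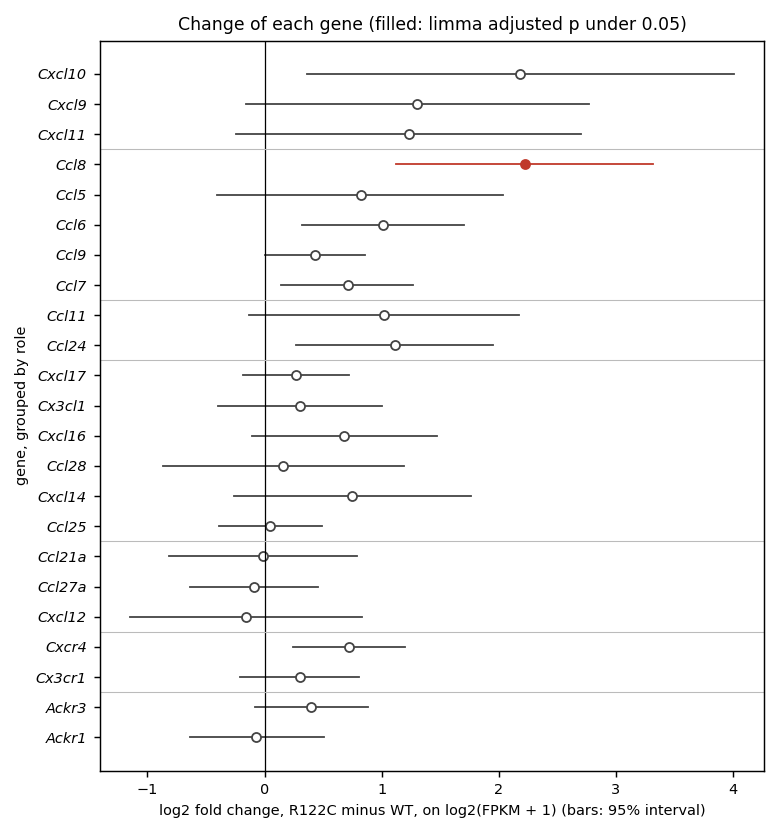
Log2 fold change of R122C minus WT for the same 23 genes, with the 95% interval of the limma model. The filled point is Ccl8 at 2.22, the single gene with an adjusted p under 0.05, while 19 of the 23 points lie right of 0.

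Ccl8, in mice a ligand of the receptor Ccr8, had the smallest p of all members tested. It lies on chromosome 11 (82115185 to 82116799, plus strand) with a single annotated transcript. Its level was 1.93, 7.65 and 12.33 FPKM in R122C libraries 1, 2 and 3, against 0.57, 0.47 and 0.44 FPKM in WT libraries 1, 2 and 3. All R122C libraries were above all WT libraries, and the WT values lay close together while the R122C values were far apart. The means were 7.30 ± 5.21 FPKM in R122C and 0.493 ± 0.0681 FPKM in WT (SD, n = 3 each), and the log2 fold change was 2.22 ± 0.48 (SE), at a limma adjusted p of 0.0336. Without R122C 3 the log2 fold change was 1.75 and the call held (limma adjusted p = 0.0438). Leaving out WT 1, WT 2, WT 3 or R122C 2 ended the call (limma adjusted p = 0.0775, 0.128, 0.0968 and 0.116 in that order). It was also lost with no filter (limma adjusted p = 0.0963), median-of-ratios scaling (0.0733) or quantile normalization (0.0829), while the log2 fold change stayed between 1.75 and 3.30 in all 15 alternatives. The receptor Ccr8 was at 0, 0.08 and 0.08 FPKM in R122C libraries and at 0, 0 and 0.05 FPKM in WT libraries.

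The neighbours of Ccl8 on chromosome 11 form a cluster of related CC ligands within 82035571 to 82116799. Ccl7, which attracts monocytes through Ccr2, was at 0.44, 1.69 and 0.71 FPKM in R122C libraries and 0.18, 0.17 and 0.10 FPKM in WT libraries. The groups did not overlap, and R122C 2 was highest (log2 fold change 0.71 ± 0.25, limma adjusted p = 0.154). Ccl2, the best known monocyte attractant, had a mean under 0.5 FPKM, with 0.23, 0.97 and 1.08 FPKM in R122C libraries and 0.15, 0.06 and 0.31 in WT libraries. Ccl12, a mouse ligand of Ccr2, reached 0.09, 0.34 and 1.26 FPKM in R122C libraries and was listed at 0 in every WT library. Ccl11, or eotaxin, which attracts eosinophils through Ccr3, was at 3.99, 7.58 and 14.85 FPKM in R122C libraries and 7.03, 3.09 and 1.48 FPKM in WT libraries. WT 1 overlapped the R122C values of Ccl11, and the gene was not called (log2 fold change 1.02 ± 0.50, limma adjusted p = 0.31, and 0.59 without R122C 3). Summed over these 5 genes, the level was 6.68, 18.2 and 30.2 FPKM in R122C libraries and 7.93, 3.79 and 2.33 FPKM in WT libraries, so R122C 1 lay below WT 1.

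Ccl24, or eotaxin-2, is another ligand of Ccr3 and lies on chromosome 5 (135569937 to 135573049, minus strand). It was at 0.27, 1.34 and 2.99 FPKM in R122C libraries and 0, 0.12 and 0.05 FPKM in WT libraries. The groups did not overlap, and R122C 2 and R122C 3 were high as for Ccl8 (log2 fold change 1.11 ± 0.37, limma adjusted p = 0.132). Without R122C 1 it was called, at 1.53 (limma adjusted p = 0.0187), and without R122C 3 it was at 0.71 (limma adjusted p = 0.177). Siglecf, an eosinophil marker, was at 3.70, 2.58 and 4.23 FPKM in R122C libraries and 0.47, 0.57 and 1.06 FPKM in WT libraries, while the eosinophil peroxidase gene Epx did not exceed 0.01 FPKM anywhere. Prg2, of the same list of mast cell and eosinophil markers, had a mean under 0.5 FPKM. It was at 0.60, 0.42 and 0.92 FPKM in R122C libraries and was listed at 0 in every WT library. Ccr3 stayed at or under 0.13 FPKM in all 6 libraries. Ccl17 and Ccl22, ligands of Ccr4 on type 2 helper and regulatory T cells, had means under 0.5 FPKM. Ccl17 was at 0.57, 0.39 and 0.59 FPKM in R122C libraries and 0, 0.15 and 0.18 FPKM in WT libraries, without overlap. The values of Ccl22 were 0.44, 0.69 and 0.95 FPKM in R122C libraries and 0.58, 0.14 and 0.18 FPKM in WT libraries, with WT 1 among the R122C values.

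A second group on chromosome 11, within 83525778 to 83664683, holds Ccl5, Ccl9, Ccl6, Ccl3 and Ccl4. Ccl6, a ligand made by mouse myeloid cells, was at 2.02, 4.36 and 4.55 FPKM in R122C libraries and 1.69, 1.46 and 0.67 FPKM in WT libraries. The groups did not overlap, but R122C 1 was close to WT 1 (log2 fold change 1.01 ± 0.30, limma adjusted p = 0.0981). It was called without R122C 1 (1.29, limma adjusted p = 0.0318) and after rescaling to a common total (1.16, limma adjusted p = 0.0461). Ccl9, also of mouse myeloid cells, was at 0.63, 1.00 and 0.99 FPKM in R122C libraries and 0.55, 0.34 and 0.28 FPKM in WT libraries (log2 fold change 0.43 ± 0.19, limma adjusted p = 0.249). Its groups did not overlap either, with R122C 1 and WT 1 again nearest to each other. Ccl5, a ligand made by T and NK cells among others, was at 2.19, 0.72 and 8.60 FPKM in R122C libraries and 1.59, 0.91 and 0.95 FPKM in WT libraries. It was low in R122C 2, and its log2 fold change of 0.82 ± 0.54 (limma adjusted p = 0.459) was 0.14 without R122C 3 (limma adjusted p = 0.847). Ccl3 and Ccl4, which attract monocytes and T cells, were highest in R122C 3 with 0.69 and 1.35 FPKM, and were at or under 0.23 and 0.15 FPKM in the other R122C libraries and at or under 0.04 and 0.28 FPKM in WT libraries.

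The interferon-inducible ligands of CXCR3, a receptor of activated T and NK cells, were high in R122C 1 and R122C 3 and at or near WT levels in R122C 2. They lie side by side on chromosome 5 within 92321347 to 92365485, on the minus strand. Cxcl10, whose promoter window above holds a response element and NF-kB matches, was at 8.83, 0.77 and 22.97 FPKM in R122C libraries 1, 2 and 3 and 1.36, 0.29 and 0.46 FPKM in WT libraries 1, 2 and 3. The R122C 2 value lay below WT 1, so the groups overlapped, and the log2 fold change of 2.18 ± 0.80 was not called (95% interval 0.36 to 4.01, limma adjusted p = 0.17). Cxcl9 was at 6.83, 0.08 and 2.98 FPKM in R122C libraries and 1.06, 0.07 and 0.02 FPKM in WT libraries (log2 fold change 1.30 ± 0.64, limma adjusted p = 0.307). Here R122C 1 was highest, and R122C 2 was at the level of WT 2. Cxcl11 was at 0.54, 0.11 and 7.41 FPKM in R122C libraries and 0.04, 0.06 and 0.02 FPKM in WT libraries. GENCODE M21 annotates Cxcl11 as a polymorphic pseudogene, since the C57BL/6 strain carries a frameshift in it, so its transcript is not expected to give the full ligand in these mice.

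Although the Cxcl11 groups did not overlap, its log2 fold change of 1.23 ± 0.64 (limma adjusted p = 0.34) rested on R122C 3 and was 0.33 without it (limma adjusted p = 0.379). Without R122C 2, Cxcl10 was at 3.22 (limma adjusted p = 0.0116) and Cxcl9 at 2.09 (limma adjusted p = 0.042), and both were called. Without R122C 3 they were at 1.34 and 1.15, and without R122C 1 at 1.99 and 0.66, and neither was called (limma adjusted p = 0.276, 0.412, 0.267 and 0.523). The receptor Cxcr3 was at 0.10, 0.10 and 0.63 FPKM in R122C libraries and 0.06, 0.06 and 0.13 FPKM in WT libraries. R122C 2 was also the R122C library with Y-linked transcripts, with Ddx3y at 4.23 FPKM and Xist at 0.02 FPKM, and WT 3 was such a library in the other group, with Ddx3y at 2.83 FPKM. The part of this in the difference between R122C libraries was not tested.

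**Figure D3:**
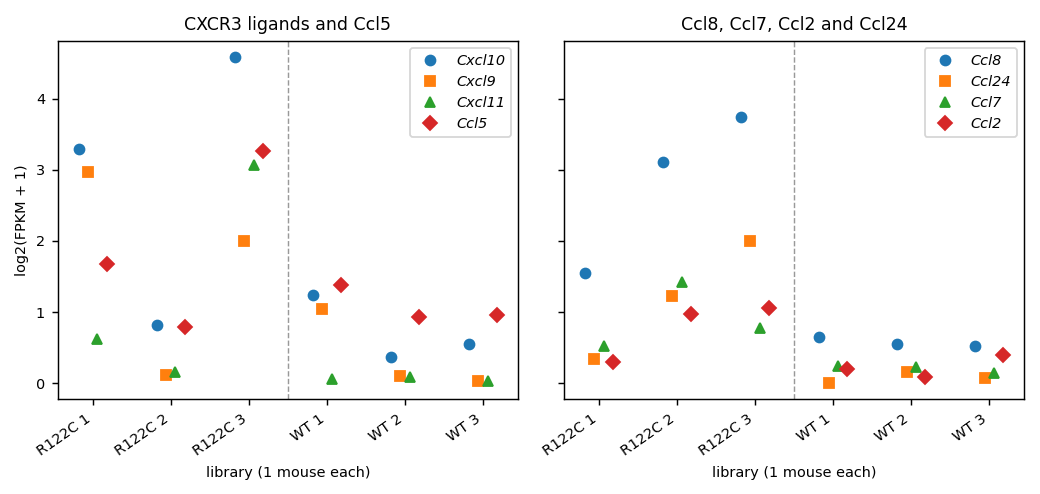
Level as log2(FPKM + 1) of 4 ligands in each panel, in the 3 R122C mice (left of the dashed line) and the 3 WT mice (right of it). Left, Cxcl10, Cxcl9, Cxcl11 and Ccl5 are high in R122C 1 and R122C 3 or in R122C 3 alone and low in R122C 2. Right, Ccl8, Ccl24 and Ccl2 are high in R122C 2 and R122C 3, and Ccl7 is highest in R122C 2.

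Irf1 and Socs1 of the interferon-gamma axis were ordered differently from Cxcl9 and Cxcl10 over the R122C libraries. Of its 8 genes, 7 were tested, 3 were called higher and 0 lower, against 5.07% and 0.846% of all tested genes, with a median log2 fold change of 0.67 against 0.10 over all genes. Irf1, an interferon-induced transcription factor, was at 21.47, 40.91 and 92.77 FPKM in R122C libraries and 8.51, 12.68 and 11.50 FPKM in WT libraries (limma adjusted p = 0.0448). Socs1, which damps this signal, was at 4.57, 14.23 and 60.71 FPKM in R122C libraries and 0.78, 0.49 and 0.85 FPKM in WT libraries (limma adjusted p = 0.0318). Both had their lowest R122C value in R122C 1. Irf1 and Socs1 lost their calls on removal of R122C 2 or of any single WT library (limma adjusted p = 0.108 to 0.128 and 0.0757 to 0.128), with no filter, with median-of-ratios scaling or with quantile normalization. Without R122C 3 both were called, with log2 fold changes of 1.38 for Irf1 and 2.44 for Socs1, against 1.92 and 3.35 with all libraries. Ifng itself did not exceed 0.17 FPKM anywhere. The part of this axis in the levels of Cxcl9 and Cxcl10 was not tested.

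Ligands of the mucosal epithelium made up most of the chemokine transcripts, and 0 of the 6 tested were called by limma or passed an unadjusted p of 0.05. Cxcl17, a mucosal ligand that attracts myeloid cells, was the most abundant member, at 201.81, 159.32 and 182.44 FPKM in R122C libraries 1, 2 and 3 and 124.04, 155.50 and 172.21 FPKM in WT libraries 1, 2 and 3. The groups overlapped, with means of 181 ± 21.3 FPKM in R122C and 151 ± 24.5 FPKM in WT (SD, n = 3 each) and a log2 fold change of 0.27 (95% interval -0.18 to 0.72, limma adjusted p = 0.506). All ligands together summed to 291, 258 and 347 FPKM in R122C libraries and 200, 218 and 236 FPKM in WT libraries. Without Cxcl17 they summed to 89.3, 99.1 and 165 FPKM in R122C libraries and 76.0, 62.8 and 64.0 FPKM in WT libraries, so Cxcl17 alone exceeded all other ligands together in every library. The remaining ligands lay higher in all R122C libraries than in all WT libraries by this sum, with R122C 3 farthest. After median-of-ratios scaling the sums overlapped, at 72.4, 95.5 and 183 in R122C libraries and 69.5, 66.5 and 73.4 in WT libraries.

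Cx3cl1, or fractalkine, a membrane-bound ligand of Cx3cr1, was at 18.99, 17.16 and 29.72 FPKM in R122C libraries and 10.98, 19.65 and 23.10 FPKM in WT libraries. Its receptor Cx3cr1, found on tissue macrophages, was at 1.25, 0.85 and 1.04 FPKM in R122C libraries and 1.16, 0.53 and 0.38 FPKM in WT libraries. Both overlapped between groups, with log2 fold changes of 0.30 each (95% intervals -0.40 to 1.00 and -0.21 to 0.81, limma adjusted p = 0.655 and 0.516), and Cx3cl1 was at 0.07 without R122C 3. Cxcl16, a membrane-bound ligand of Cxcr6, was at 11.35, 23.22 and 17.98 FPKM in R122C libraries and 6.20, 15.29 and 10.81 FPKM in WT libraries (log2 fold change 0.68 ± 0.35, limma adjusted p = 0.324). With the replicate number added to the model, Cxcl16 was called (limma adjusted p = 0.031). Cxcl14, an epithelial ligand, was at 1.78, 6.44 and 2.73 FPKM in R122C libraries and 3.49, 0.97 and 0.84 FPKM in WT libraries, and its highest value was again in R122C 2 (log2 fold change 0.75 ± 0.44, limma adjusted p = 0.403).

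Ccl28 draws IgA-producing plasma cells to mucosae through Ccr10. It was at 6.62, 1.42 and 4.19 FPKM in R122C libraries and 5.40, 2.88 and 1.76 FPKM in WT libraries, with overlap (log2 fold change 0.16, 95% interval -0.87 to 1.19, limma adjusted p = 0.893). Jchain, the joining chain of IgA and of the plasma cell list, was at 21.42, 11.41 and 55.12 FPKM in R122C libraries and 8.70, 5.65 and 1.23 FPKM in WT libraries (limma adjusted p = 0.0832). The groups of Jchain did not overlap, whereas those of Ccl28 did. Ccr10 was at 0.27, 0.06 and 0.17 FPKM in R122C libraries and 0, 0.01 and 0.02 FPKM in WT libraries, too low to enter the test. Ccl25, the gut ligand of Ccr9, was at 0.74 to 1.19 FPKM in R122C libraries and 0.64 to 1.07 FPKM in WT libraries (log2 fold change 0.05, 95% interval -0.39 to 0.49), and Ccl20, the ligand of Ccr6, stayed at or under 0.18 FPKM in R122C libraries and at or under 0.45 FPKM in WT libraries.

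Homeostatic ligands had log2 fold changes near 0, and 0 of the 3 tested were called by limma or passed an unadjusted p of 0.05. Cxcl12, the stromal ligand of Cxcr4, was at 5.64, 3.99 and 4.92 FPKM in R122C libraries and 13.06, 3.82 and 3.03 FPKM in WT libraries, where WT 1 stood apart. Its log2 fold change of -0.16 (95% interval -1.15 to 0.83, limma adjusted p = 0.89) was 0.40 without WT 1 and 0.03 after rescaling to a common total. Ccl21a, the Ccr7 ligand of lymphatic vessels, was at 7.25, 9.29 and 11.03 FPKM in R122C libraries and 15.75, 5.08 and 9.31 FPKM in WT libraries (log2 fold change -0.01, limma adjusted p = 0.989). Values of Ccl27a, a Ccr10 ligand best known from skin, were 4.59 to 6.26 FPKM in R122C libraries and 4.70 to 8.31 FPKM in WT libraries (log2 fold change -0.09, limma adjusted p = 0.884). Ccl21a and Ccl27a have near-identical copies in the mouse genome, and Ccl27b shared all its values with another row, so these levels are uncertain where the counting could split reads. Markers of vessels, fibroblasts and smooth muscle had summed levels that overlapped between groups, and 0 genes of those lists were called by limma or passed an unadjusted p of 0.05.

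Receptors were scarce. All 22 receptors together summed to 8.78, 9.09 and 10.8 FPKM in R122C libraries and 7.37, 5.83 and 4.19 FPKM in WT libraries, and the groups did not overlap in this sum. In bulk tissue, fewer or more cells of a type cannot be told apart from less or more RNA per cell. Cxcr4, the Cxcl12 receptor of most leukocytes, was at 1.74, 2.24 and 2.60 FPKM in R122C libraries and 0.61, 1.04 and 1.17 FPKM in WT libraries. The groups did not overlap, and the log2 fold change of 0.72 ± 0.21 had an adjusted limma p of 0.0915. It was called after rescaling to a common total (0.86, limma adjusted p = 0.0395), and remained above 0 in all 15 alternatives. With the replicate number added to the model, Cxcr4 was called as well (limma adjusted p = 0.0326).

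Among atypical receptors, Ackr3, which takes up Cxcl12, was at 2.27, 2.42 and 2.22 FPKM in R122C libraries and 2.07, 1.44 and 1.08 FPKM in WT libraries. The R122C values were close together and above all WT values (log2 fold change 0.40 ± 0.21, limma adjusted p = 0.335). Ackr1, which carries chemokines across venule walls, was at 0.42, 0.78 and 0.63 FPKM in R122C libraries and 1.36, 0.56 and 0.29 FPKM in WT libraries (log2 fold change -0.07, 95% interval -0.64 to 0.51). Ackr4, which removes Ccl19, Ccl21 and Ccl25, was at 0.74, 0.29 and 0.51 FPKM in R122C libraries and 0.07, 0.35 and 0.34 FPKM in WT libraries, and so overlapped.

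The other 34 members had a mean under 0.5 FPKM and were not tested. All R122C values lay above all WT values in 10 of them and below in 0, where the shares among all 6060 genes under this mean were 9.98% and 6.3%. The 10 were Ccl17, Ccl19, Ccl12, Ccl1, Ccl3, Cxcl3, Cxcl1, Cxcl5, Ccr10 and Ccr4, and for Ccr4 this rested on values at or under 0.03 FPKM. Ccl1, a Ccr8 ligand like mouse Ccl8, reached 0.33, 0.05 and 1.28 FPKM in R122C libraries and was listed at 0 in every WT library. Among neutrophil-attracting ligands of Cxcr2, Cxcl3 reached 0.11, 0.22 and 0.57 FPKM in R122C libraries and was likewise listed at 0 in every WT library. The 5 genes of that group summed to 0.43, 0.57 and 1.43 FPKM in R122C libraries and 0.25, 0.08 and 0.06 FPKM in WT libraries, so the group was scarcely detected. Ccl19 and Cxcl13, ligands that organise lymphoid tissue, reached 0.78 FPKM in R122C 3 and 0.84 FPKM in R122C 2, against at most 0.14 and 0.26 FPKM in WT libraries. Ccr2, the receptor of Ccl2 and Ccl7 on monocytes, reached 0.71 FPKM in R122C 1, and Cxcr6, the receptor of Cxcl16, reached 0.53 FPKM in R122C 3. Cxcr1 was highest in WT, with 0.62 FPKM in WT 2, and the groups of these 3 receptors overlapped.

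**Figure D4:**
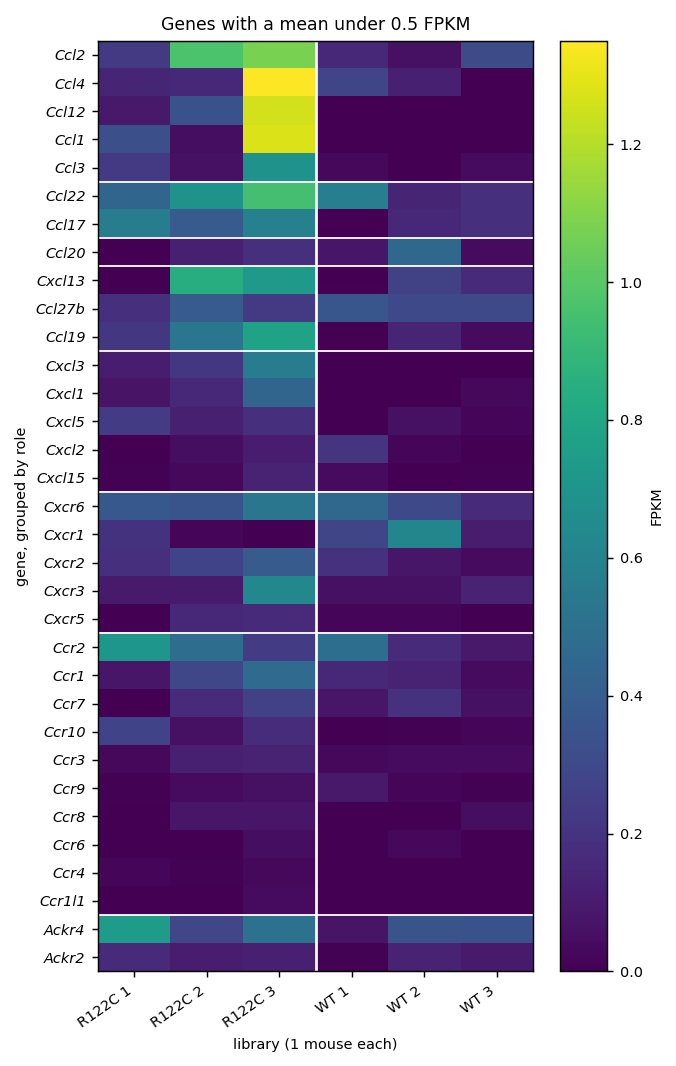
FPKM of the members with a mean under 0.5 FPKM, with 1 of the 34 not shown, in the 3 R122C mice (left of the white line) and the 3 WT mice (right of it). The brightest cells are in R122C 3, with Ccl4 at 1.35, Ccl1 at 1.28, Ccl12 at 1.26 and Ccl2 at 1.08 FPKM.

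Some genes of chemokine receptor signalling were higher in R122C tissue, while others lay lower without being called. Of 22 tested genes of chemokine receptor signalling, 5 were called higher and 0 lower, against 5.07% and 0.846% of all tested genes, with a median log2 fold change of 0.30 against 0.10 over all genes. Pik3r5 and Pik3cg, the regulatory and catalytic subunits of the phosphoinositide 3-kinase that G proteins activate, rose by 1.38 ± 0.19 and 0.99 ± 0.20 (limma adjusted p = 0.00505 and 0.026). Vav1, which activates Rac, rose by 1.23 ± 0.20 (limma adjusted p = 0.0118) and Rac2, the Rac protein of blood cells, by 1.90 ± 0.35 (limma adjusted p = 0.0187). Rgs2, which shortens G protein signals, rose by 1.18 ± 0.23 (limma adjusted p = 0.022). Rac2 was at 5.25, 5.01 and 13.52 FPKM in R122C libraries and 0.91, 1.06 and 1.66 FPKM in WT libraries, and so was highest in R122C 3 and did not overlap. Gng2, a gamma subunit of G proteins, was at 0.61, 0.47 and 0.72 FPKM in R122C libraries and 2.05, 1.32 and 1.28 FPKM in WT libraries (log2 fold change -0.66 ± 0.20, limma adjusted p = 0.10). Dock2, a Rac activator of leukocytes, was at 0.40, 0.41 and 0.48 FPKM in R122C libraries and 0.50, 0.56 and 3.26 FPKM in WT libraries (limma adjusted p = 0.443). All R122C values of both genes lay below all WT values, and quantile normalization gave 4 genes higher and 1 lower, which was Gng2 (-0.81, limma adjusted p = 0.0246). The count of 5 was 3 without WT 1 or R122C 2, 1 without WT 2 (Pik3r5), 2 without WT 3 and 3 with no filter, and it was again 5 without R122C 1 or R122C 3.

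Further genes of the pathway gave few calls. Of 5 tested proteases and proteoglycans that act on chemokines, 1 rose and 0 fell, against 5.07% and 0.846% of all tested genes. The 1 was Dpp4, the peptidase that trims the ends of Cxcl10 and related ligands. Dpp4 was at 3.02, 1.28 and 2.48 FPKM in R122C libraries and 0.31, 0.36 and 0.24 FPKM in WT libraries, without overlap (log2 fold change 1.28 ± 0.24, limma adjusted p = 0.0198). It was not called without WT 1, WT 2 or WT 3 (limma adjusted p = 0.0511, 0.086 and 0.0735). Of 4 tested type 2 cytokine genes, 1 rose and 0 fell, against the same shares of all tested genes. It was Il4ra, the receptor chain of IL-4 and IL-13, with 11.47, 15.43 and 17.06 FPKM in R122C libraries and 5.93, 5.92 and 5.63 FPKM in WT libraries (limma adjusted p = 0.0135), and it was not called without WT 2, WT 3 or R122C 2 (limma adjusted p = 0.0696, 0.0545 and 0.0704) or with median-of-ratios scaling (0.0531). Of 9 tested NF-kB genes, 3 lymphotoxin genes and 3 chemokine relatives outside the naming rule, 0 were called by limma. At an unadjusted p under 0.05, 3 NF-kB genes were higher and 1 lower, 1 lymphotoxin gene was higher and 0 of the relatives passed. Over all tested genes, 15.2% were higher and 4.89% lower at that limit. The members of smallest p in those lists were Tlr2, a sensor of bacterial lipoproteins, at -0.71 ± 0.22, Map3k14, the kinase of the lymphotoxin pathway, at 0.71 ± 0.21, and Ccrl2, a receptor that binds chemerin, at 0.77 ± 0.35 (limma adjusted p = 0.108, 0.0927 and 0.259).

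Most pan-leukocyte markers also lay higher in R122C libraries. Of 6 pan-leukocyte genes 5 had R122C values above all WT values and 2, Cd52 and Laptm5, were called higher. The shares over all tested genes were 20.1% and 5.07%. The count of calls was 0 without WT 2, WT 3 or R122C 2 and with median-of-ratios scaling, and 1 without R122C 3. The list summed to 56.9 to 73.7 FPKM in R122C libraries and 38.4 to 58.7 FPKM in WT libraries. Ptprc, the pan-leukocyte protein CD45, was at 1.98, 1.19 and 1.88 FPKM in R122C libraries and 1.12, 0.49 and 0.34 FPKM in WT libraries, and was not called (limma adjusted p = 0.136). Lcp1, the most abundant gene of the list, overlapped between groups (log2 fold change -0.12). Its values were 45.64, 30.32 and 25.40 FPKM in R122C libraries and 44.97, 29.47 and 34.13 FPKM in WT libraries. Mast cell and eosinophil markers summed to 95.2 to 770 FPKM in R122C libraries and 16.6 to 51.7 FPKM in WT libraries. Mast cell genes made up most of this sum, with Mcpt1 at 368.9 and Mcpt2 at 311.07 FPKM in R122C 3, where Siglecf was at 4.23 FPKM. Of 6 tested genes of the list 5 were called higher, against 5.07% of all tested genes, namely Mcpt2, Cma1, Cpa3, Fcer1a and Siglecf. Of these 5, 2 were called without R122C 1 or WT 1, 3 without WT 3, 0 without WT 2, and 2 under either median-of-ratios or quantile scaling. Markers of T and NK cells summed to 1.12, 1.28 and 7.17 FPKM in R122C libraries 1, 2 and 3 and 0.79 to 1.81 FPKM in WT libraries. In R122C 1 the 8 genes of that list were at 0 (Cd3d) to 0.37 FPKM (Cd4), and of the 2 tested 0 were called by limma or passed an unadjusted p of 0.05. Markers of macrophages and dendritic cells summed to 27.2, 60.7 and 54.5 FPKM in R122C libraries and 14.6 to 34.5 FPKM in WT libraries, so this sum was highest in R122C 2 and R122C 3, as was Ccl8. C1qa, C1qb and Cd68 shared this, but Csf1r was at 3.15, 2.86 and 2.03 FPKM in R122C libraries. Adgre1 and Mrc1 were highest in WT 1, at 1.75 and 1.17 FPKM. Of 7 tested genes 1, Itgax, was called higher (limma adjusted p = 0.0374), against 5.07% of all tested genes. Its values were 1.32, 1.47 and 1.54 FPKM in R122C libraries, and its call was lost when any single library was left out. Neutrophil markers summed to 3.91 to 21.2 FPKM in R122C libraries and 0.29 to 2.40 FPKM in WT libraries. The highest sum, in R122C 3, held S100a9 at 12.49 FPKM and S100a8 at 4.89 FPKM. Both were at 0 in R122C 2 and were not called (limma adjusted p = 0.5 and 0.607). Of 3 tested genes 1 was called higher, against 5.07% of all tested genes. It was Retnlg, a secreted protein of neutrophils, with 2.72, 6.86 and 3.64 FPKM in R122C libraries and 0.36, 0.39 and 0.26 FPKM in WT libraries (limma adjusted p = 0.00662), while Mpo and Ly6g were at or under 0.05 FPKM throughout. Markers of B and plasma cells summed to 14.1 to 64.2 FPKM in R122C libraries and 1.36 to 9.57 FPKM in WT libraries. The part of these cell markers in the chemokine levels was not tested.

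**Figure D5:**
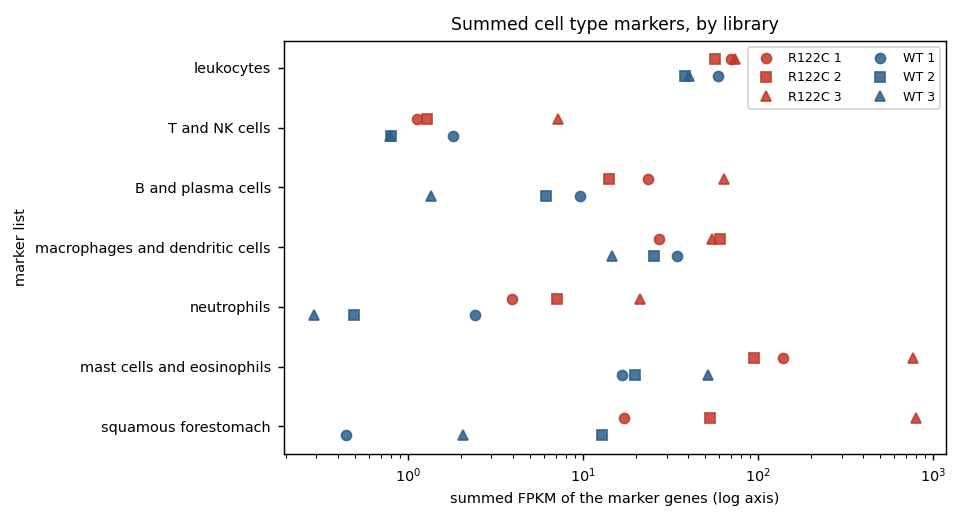
Summed FPKM of the marker genes of 7 cell types on a log axis, in 3 R122C mice (red, upper point row) and 3 WT mice (blue), with 1 marker shape per replicate number. R122C 3 is highest for T and NK, B and plasma, neutrophil, mast cell and squamous markers, and R122C 2 for macrophages and dendritic cells.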

How the data were processed

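RNA-seq of 6 corpus libraries (3 R122C, 3 WT) was used. FPKM values were computed by the authors and deposited as 1 table, and the submitters' processing notes list STAR, featureCounts and mm10 with neither versions nor settings. The sources used here do not give how counts became FPKM or whether counting used strand. Of the rows, 26 carry a date in place of the gene name and were tested but not named. Some genes are not reported here.

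Values were tested as log2(FPKM + 1) with limma 3.58.1 in R 4.3.3 (two-sided, no covariate, empirical Bayes moderation along a mean-variance trend), over the 12648 genes that averaged at least 0.5 FPKM, with a Benjamini-Hochberg threshold of 0.05. The pseudocount shrinks the change of low genes. The replicates are separate mice, per the labels. On data simulated for this comparison over 12648 genes, a log2 change of 1 was recovered in 32%, of 2 in 88% and of 3 in 98% of 50 genes each, with 5 false calls. The changes were added only to genes with a mean log2(FPKM + 1) above 1. These shares therefore do not cover members of lower level, such as Ccl24 and Ccl7. Depth was estimated from genes with 1 transcript in GENCODE M21 by the step of low values, with limits of 1000 and 1500 nucleotides and 100 permutations of lengths. No counting interval was derived from it.

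The members, gene lists and tests were chosen with earlier results of these data known. The naming rule takes every member with a mean of at least 0.5 FPKM, members under it where a library reaches 0.5 FPKM, and of each pathway list up to 4 called genes or the gene of smallest p, and other genes were chosen after their values were seen. Positions are from GENCODE M21 (GRCm38) and promoters from RefSeq. The alternatives tried were pseudocounts of 0.5 and 0.1 FPKM, a minimum mean of 1 FPKM or none, 3 scalings, no trend, a replicate block and leaving out each library. Figures were drawn with matplotlib 3.10.9.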

Additional observations from a re-analysis of the deposited data

How the results depend on the processing

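The count of members called higher was 1. It was 0 with no filter, with median-of-ratios scaling and with quantile normalization, and 3 after rescaling to a common total, and it lay between 0 and 3 when single libraries were left out. No member was called lower under any alternative, and 0 were lower at an unadjusted p under 0.05. Over all genes, 641 were higher and 107 lower. With no filter these counts were 427 and 66, with median-of-ratios scaling 419 and 180, with quantile normalization 437 and 266, after rescaling to a common total 1291 and 78, and they ranged from 219 to 600 and from 14 to 198 when single libraries were left out. Fewest genes were higher without WT 2 (219, and 16 lower), and fewest were lower without R122C 2 (14).

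The replicate block gave 3 members higher (Ccl8, Cxcl16 and Cxcr4) and 1072 genes higher and 226 lower. Same-numbered libraries deviated from their group means with correlations of 0.45, 0.02 and 0.35 across genes, and R122C 2 did not correlate best with its own number, so the numbers were not taken to pair the mice. Estimated depth fell from library 1 to library 3 in both groups, and whether the numbers mark a shared batch was not tested.

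Of 339 values of single members under alternatives, 307 kept their direction and their side of the threshold. Uncalled members near 0 changed sign. After rescaling to a common total the log2 fold changes were 0.19 for Ccl21a, 0.10 for Ccl27a, 0.03 for Cxcl12 and 0.01 for Ackr1, and for Ccl25 it was -0.02 with median-of-ratios scaling and -0.13 with quantile normalization. Leaving out single libraries gave -0.38 (without WT 2) to 0.35 (without WT 1) for Ccl21a, -0.24 to 0.11 for Ccl27a, -0.50 to 0.40 for Cxcl12, -0.21 to 0.62 for Ccl28, -0.04 to 0.13 for Ccl25 and -0.26 to 0.18 for Ackr1. The cause was not tested. Members under 0.5 FPKM rest on few fragments, which limits what their levels can show.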
